A study of Mus musculus with 11 samples.

Results

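The genes described here are 43 genes of the skeletal muscle contractile and calcium machinery, among 22600 genes in the deposited count table of whole distal tibiae. They were chosen by name, as every row whose symbol is on a fixed list of sarcomere, calcium handling and muscle energy genes, and all 43 were found. By the muscle fibre type in which each is mainly used, 13 are fast, 7 are slow and 23 are shared by both. A low-count filter kept 40 of them for testing, and the 3 that did not pass (Myh7, Myl3 and Tnni1) are all slow.

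Skeletal muscle fibres shorten when thick filaments of myosin pull on thin filaments of actin. Calcium starts the pull. A depolarized membrane opens the voltage sensor and the ryanodine receptor, calcium leaves the sarcoplasmic reticulum and binds troponin on the thin filament, and a calcium pump then returns it to the store. Fast and slow fibres use different genes for the same part, such as the myosin heavy chains Myh4, Myh1 and Myh2 in fast fibres and Myh7 in slow ones. In a bone sample these genes mark muscle fibre RNA, since bone and marrow cells hold little of most of them.

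RNA-seq was performed on distal tibiae of 4 control mice (genotype label BMAd-WT) and 7 BMAd-DTA mice, 1 library per mouse, all C57BL6/SJL, 24 weeks old and fed ad libitum. In BMAd-DTA mice, bone marrow adipocytes (BMAds) are killed by diphtheria toxin A (DTA), encoded at the ROSA locus. The toxin is switched on by a Cre that needs both Osterix-FLPo, active in the osteoblast lineage, and an FLPo-dependent Cre placed at Adipoq, and per the study's methods the controls also carry these 2 alleles. The bone was cut at the junction of tibia and fibula and powdered whole, so that every tissue left on or in it contributed RNA. Libraries held 16969529 to 18637663 counts. Levels are given as CPM, counts per 1000000 of the library size after TMM scaling, and mice are numbered within their genotype as names only.

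The 4 adult myosin heavy chain genes carry the fast and slow identity of a fibre, so the 120 bases before their RefSeq starts are shown, 5′ to 3′ on the gene's strand (build GRCm38.p6). Myh2, Myh1 and Myh4 lie next to each other on chromosome 11, at chr11:67170907-67171026, chr11:67199982-67200101 and chr11:67237692-67237811 on the plus strand, and Myh7 is at chr14:54994627-54994746 on the minus strand. Capitals mark matches on either strand to the E-box CANNTG, the MCAT element CATTCC, the letters TATAAA, the CArG box and the MEF2 site.
Myh2: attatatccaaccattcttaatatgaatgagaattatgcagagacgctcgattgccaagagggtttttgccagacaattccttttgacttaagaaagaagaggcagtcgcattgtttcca
Myh1: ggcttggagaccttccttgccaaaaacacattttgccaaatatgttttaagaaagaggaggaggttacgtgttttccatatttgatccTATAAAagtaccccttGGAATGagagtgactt
Myh4: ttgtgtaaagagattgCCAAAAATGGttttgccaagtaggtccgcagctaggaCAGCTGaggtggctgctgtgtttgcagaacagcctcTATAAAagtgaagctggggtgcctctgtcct
Myh7: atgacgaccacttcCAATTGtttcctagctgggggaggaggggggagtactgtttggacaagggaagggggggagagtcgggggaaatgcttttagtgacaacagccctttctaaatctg

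The fast genes Myh1 and Myh4 held TATAAA, starting 32 and 31 bases before the start. Myh4 also held a CArG box (first base 104 before the start) and an E-box (67 before), and Myh1 held a CATTCC on the other strand (16 before). Myh7 held an E-box alone, and the Myh2 stretch held none of these letters. RefSeq promoters of 300 bases were found for 33 of the 43 genes. Of these, 27 (81.8%) held an E-box, against 72.1% of 27025 promoters of the same length. A CArG box was in 5 (15.2%) against 1.57%, CATTCC in 11 (33.3%) against 14.6%, TATAAA in 6 (18.2%) against 14.2%, and a MEF2 site in 2 (6.06%) against 0.566%. A match of letters is a description of the sequence and not a bound site.

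The 43 genes were a small and uneven part of every library. They took 0.0912%, 0.102%, 0.214% and 0.0237% of the counts in Control 1, 2, 3 and 4. In BMAd-DTA 1 to 7 they took 0.0723%, 0.0216%, 0.0202%, 0.0425%, 0.0210%, 0.164% and 0.115%. The means were 0.108% ± 0.079 (SD, n = 4) in controls and 0.0652% ± 0.0558 (SD, n = 7) in BMAd-DTA mice. The genotypes overlapped over most of their range. Control 3 had the highest share, and Control 4 stood beside the 3 lowest BMAd-DTA mice. In the libraries with the lowest shares, a large part came from Myom1 and Tpm2, which hardly varied among mice, with 1823 and 985 of 4424 counts in Control 4 and 1075 and 927 of 3604 counts in BMAd-DTA 5. The share of the 13 fast genes alone therefore ranged more widely, from 0.00265% to 0.121% in controls and from 0.00262% to 0.0833% in BMAd-DTA mice. In bulk RNA, fewer muscle fibres and less RNA per fibre cannot be told apart.

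Ckm, the creatine kinase that buffers ATP in muscle, shows how the mice were ordered. Its lowest levels were 0.726 CPM in Control 4, 0.802 in BMAd-DTA 2, 1.55 in BMAd-DTA 5 and 1.87 in BMAd-DTA 3. The next library, BMAd-DTA 4, was at 15.8 CPM, followed by 24.7 in BMAd-DTA 1, 38.9 in Control 1, 42.8 in Control 2, 49.3 in BMAd-DTA 7, 118 in Control 3 and 120 in BMAd-DTA 6. The libraries therefore stood in 2 clusters, with 7 above the gap and 4 below it, and both genotypes were in each. Of the 40 tested genes, 28 were highest in Control 3, 6 in BMAd-DTA 6 and 4 in BMAd-DTA 7. Control 4 was the lowest library for 16 of them, and BMAd-DTA 2, 3 and 5 for 8, 7 and 6.

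**Figure D1:**
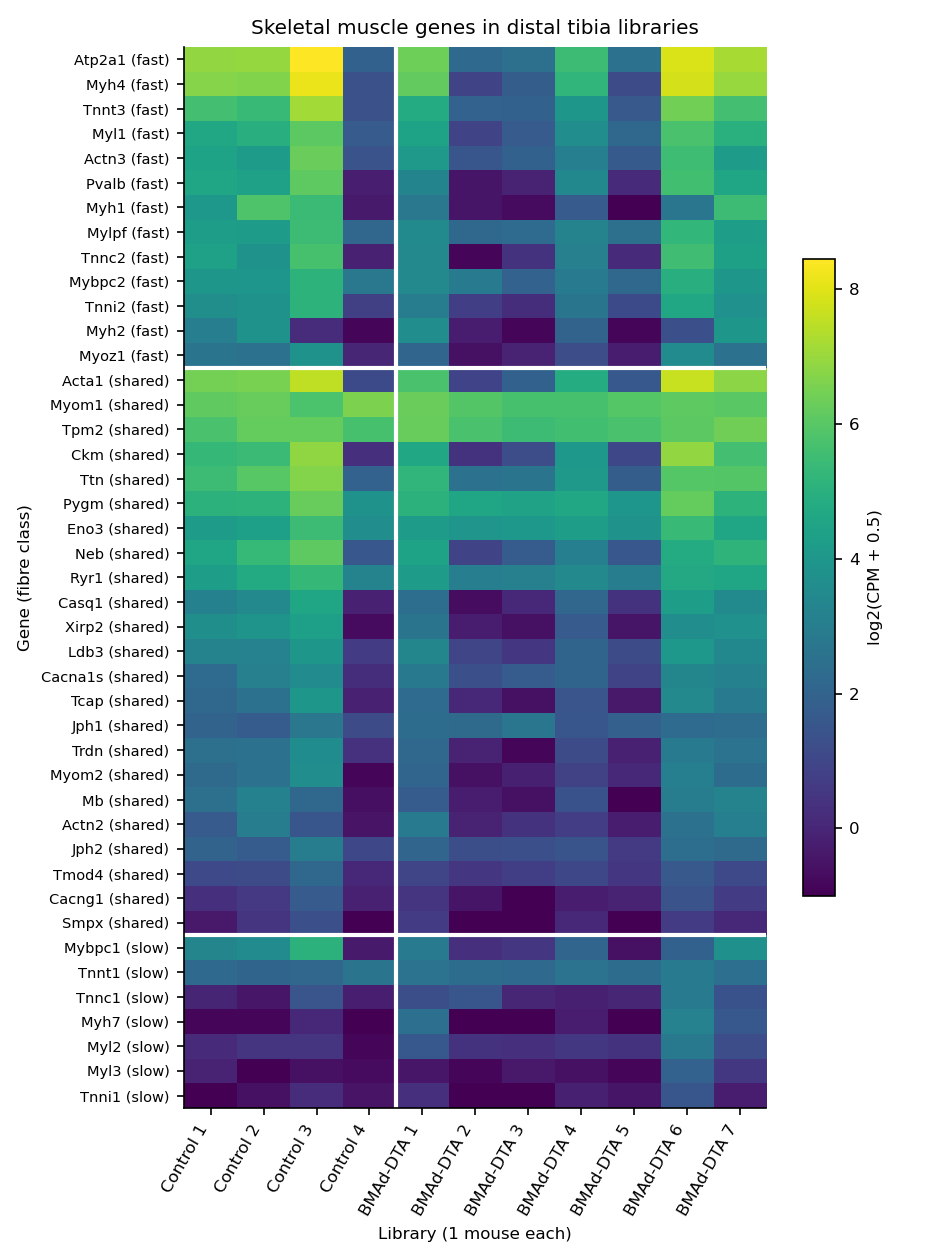
Level of the 43 genes, as log2(CPM + 0.5) on the color scale, in each of the 11 libraries (columns, 1 mouse each, controls left of the vertical line), with genes in rows by fibre class and then by mean level. Control 4 and BMAd-DTA 2, 3 and 5 are dark for most fast and shared genes, Control 3 and BMAd-DTA 6 are bright, and Myom1, Tpm2 and Tnnt1 are nearly even across mice.

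No muscle gene passed an adjusted p of 0.05 between genotypes in the edgeR quasi-likelihood test, with p-values adjusted by Benjamini-Hochberg across the 16496 genes tested. That test called 13 genes in all, 0.0788% of those tested. DESeq2 called 5.42% and limma-voom 0.121% of the genes they tested, and neither called a muscle gene. At an unadjusted p under 0.05 edgeR held 1 muscle gene of 40, Myl2, against 16.4% of all genes, and for none of the 40 did the genotypes separate in CPM, against 2.81% of all genes. The fitted log2 fold change (BMAd-DTA against control) was below 0 for 35 of the 40, against 49.6% of all genes. Their median was -0.72, where the median of all genes was 0.00182. These 40 values are not independent of each other, because most of the genes followed the same order of mice. Without Control 3 the median was -0.0854, and without BMAd-DTA 6 it was -1.33.

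The spread among mice of 1 genotype was the main feature of these genes. Within genotype, the SD of log2 CPM had a median of 1.90 over the 40 genes and 0.206 over all genes tested. It was above 1 for 31 of the 40 (77.5%) and for 406 of all genes (2.46%). Where the mean was 50 counts or more, it was above 1 for 27 of 35 muscle genes and for 1.33% of 12973 genes. Of the 50 genes with the widest spread in the data, 19 were on the muscle list. The highest library exceeded the lowest by 297-fold for Pvalb, 202-fold for Myh4, 165-fold for Ckm, 148-fold for Acta1 and 103-fold for Atp2a1. For Pvalb the lowest library held only 4 counts. Myh1 had 0 counts in its lowest library and ranged at least 333-fold if 3 counts are taken as the limit there.

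**Figure D2:**
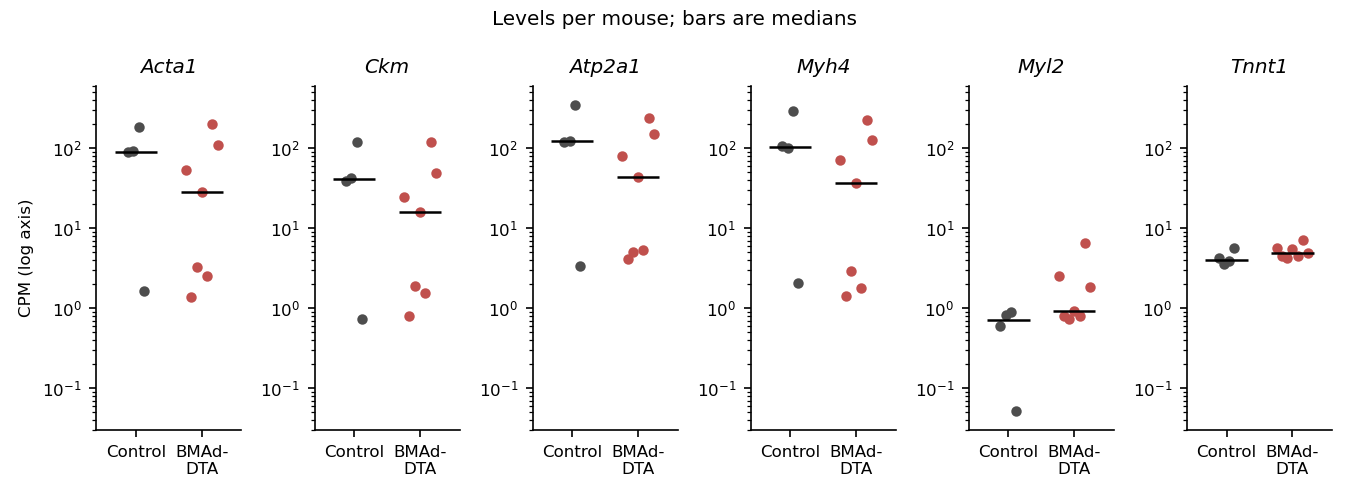
CPM on a log axis in each mouse (points) for Acta1, Ckm, Atp2a1, Myh4, Myl2 and Tnnt1, by genotype, with bars at the medians. For the first 4 genes the points of each genotype run over about the same wide range, Myl2 is above every control in 4 of 7 BMAd-DTA mice, and Tnnt1 stays between 3.59 and 7.10 CPM in all 11.

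Among the thick filament genes, the fast heavy chain Myh4 (IIB), the most abundant myosin here, was at 106, 100, 289 and 2.07 CPM in Control 1 to 4. In BMAd-DTA mice its lowest, median and highest levels were 1.43, 37.1 and 228 CPM. The log2 fold change was -0.89 (SE 1.16, edgeR adjusted p = 0.764), and it was -0.05 without Control 3 and -1.63 without BMAd-DTA 6. Myh1 (IIX) had the lowest log2 fold change of the 40 genes, -1.76 (SE 1.19, edgeR adjusted p = 0.497), or -3.5 without BMAd-DTA 7. It was at 15.9, 57.4, 42.7 and 0.311 CPM in controls, and at 0, 2.79 and 44.3 CPM (lowest, median, highest) in BMAd-DTA mice, where BMAd-DTA 7 alone was above 6.30 CPM. Myh2 (IIA) followed another order of mice, with 7.72, 14.0, 0.650 and 0.0519 CPM in controls, so that Control 3, the richest library in most muscle genes, held almost none of it. In BMAd-DTA mice Myh2 ran from 0.0567 over a median of 2.0 to 15.7 CPM. Its log2 fold change was -0.22 (SE 1.19, edgeR adjusted p = 0.954) and was 0.78 without Control 2.

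The fast light chains went with Myh4. Myl1, the fast essential light chain, was at 24.9, 29.8, 67.1 and 2.75 CPM in controls and at 1.43, 12.0 and 52.5 CPM (lowest, median, highest) in BMAd-DTA mice. Mylpf, the fast regulatory light chain, was at 19.1, 17.7, 44.1 and 3.89 CPM in controls and at 4.01, 8.85 and 37.9 CPM in BMAd-DTA mice. Their log2 fold changes were -0.79 and -0.71, and without Control 3 they were -0.0895 and -0.0702. Of the myosin binding proteins, fast Mybpc2 had a log2 fold change of -0.68 and Mybpc1, counted here as slow, of -1.70 (SE 0.908, edgeR adjusted p = 0.374). Mybpc1 was at 33.3 CPM in Control 3 but 3.35 CPM in BMAd-DTA 6, although these mice were alike in Ckm. Over the 8 tested thick filament genes the median log2 fold change was -0.75.

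The heavy chains were also compared within each library, as shares of Myh4, Myh1, Myh2 and Myh7 after division by exon length, a measure that does not depend on how much muscle RNA a library holds. Myh4 was the largest share in every mouse, from 60.2% in Control 2 to 97.4% in BMAd-DTA 5. Its mean was 79.2% ± 12.8 (SD, n = 4) in controls and 84.9% ± 11.3 (SD, n = 7) in BMAd-DTA mice. Myh1 had 11.8%, 32.7%, 12.2% and 12.2% in Control 1 to 4. In BMAd-DTA 1 to 7 it had 6.57%, 11.2%, 3.46%, 6.15%, 0%, 2.37% and 23.0%. Thus 6 of the 7 BMAd-DTA mice were below every control and BMAd-DTA 7 was above 3 of the 4. The Myh1 means were 17.2% ± 10.3 (SD, n = 4) and 7.53% ± 7.68 (SD, n = 7), a difference within 1 SD of the controls, and no test was run on these shares. Myh2 had a mean of 3.54% ± 3.13 (SD, n = 4) in controls and 6.43% ± 5.26 (SD, n = 7) in BMAd-DTA mice.

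The depth behind these shares differed widely. In the 4 libraries poor in muscle RNA they rest on 47 counts (Control 4), 35 (BMAd-DTA 2), 55 (BMAd-DTA 3) and 32 (BMAd-DTA 5), and in the other 7 on 800 to 5634. The share of Myh1 among the undivided counts was 12.8% in Control 4, with an exact binomial 95% interval of 4.83% to 25.7%, and 11.4% (3.20% to 26.7%) in BMAd-DTA 2, so low-count mice cannot be ordered by it. In BMAd-DTA 5, 0 of 32 counts were Myh1, with an upper bound of 10.9%. Among the deep libraries the intervals were narrow, 31.7% to 35.2% in Control 2 against 2.02% to 2.98% in BMAd-DTA 6. These intervals cover counting error only. Sequence stretches that the heavy chain genes share are not assigned by a count of uniquely mapped reads, so the shares carry an uncertainty that was not measured.

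**Figure D3:**
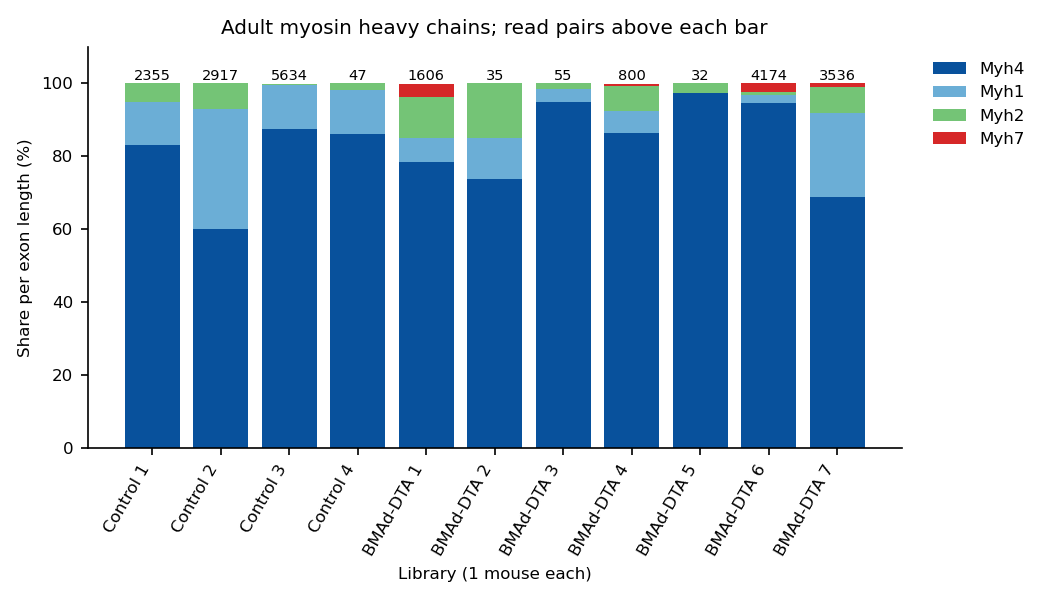
Share (%) of Myh4, Myh1, Myh2 and Myh7 among the 4, per exon length, in each library (1 mouse each), with the number of read pairs behind each bar printed above it. Myh4 fills most of every bar, Myh1 is widest in Control 2 and BMAd-DTA 7, and Myh7 is visible only in BMAd-DTA mice, at most 3.80% in BMAd-DTA 1.

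Most slow genes had low counts, and Mybpc1 and Tnnt1 had the most of the 7. Myh7, the slow heavy chain, had 1, 1, 9 and 0 counts in Control 1 to 4 and 84, 0, 0, 6, 0, 145 and 48 counts in BMAd-DTA 1 to 7. Per length it made up 3.80%, 2.46%, 0.977% and 0.533% of the heavy chains in BMAd-DTA 1, 6, 7 and 4, and at most 0.112% in a control. The 3 mice with 0 counts allow up to 8.57%, 5.45% and 9.38% of heavy chain counts by the limit of 3 counts, and Control 4 allows 6.38%. Fitted without the low-count filter, Myh7 had a log2 fold change of 3.83 (SE 1.57, edgeR adjusted p = 0.294), a value that depends on how near-0 counts are treated. Myh7 was high only in mice that were also above the Ckm gap, while Control 1, 2 and 3, above the same gap, had at most 9 counts.

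Myl2, the slow regulatory light chain, had the highest log2 fold change of the 40 genes. It was at 0.606, 0.824, 0.886 and 0.0519 CPM in Control 1 to 4, and at 2.53, 0.802, 0.738, 0.929, 0.803, 6.52 and 1.86 CPM in BMAd-DTA 1 to 7. All 7 BMAd-DTA mice were above Control 4 and 4 of them were above every control, but the genotypes overlapped. These levels rest on few counts, with 1 in Control 4, 15 in Control 3 and 17 in BMAd-DTA 4. The log2 fold change was 1.78 (SE 0.742, edgeR adjusted p = 0.25), and the exact two-sided permutation test on log2 CPM gave p = 0.0545 without adjustment. Without BMAd-DTA 6 the log2 fold change was 1.12. Tnnc1, the slow troponin C, was at 0.496, 0.236, 2.30 and 0.363 CPM in controls and from 0.382 over a median of 1.89 to 6.75 CPM in BMAd-DTA mice, with a log2 fold change of 1.30 (SE 0.827, edgeR adjusted p = 0.468). That value was 0.627 without BMAd-DTA 6 and 2.48 without Control 3. The second highest level of Tnnc1, 2.41 CPM, was in BMAd-DTA 2, a mouse poor in muscle RNA. Myl3 had 8, 0, 3 and 2 counts in controls and 4, 1, 5, 3, 1, 58 and 18 in BMAd-DTA 1 to 7. Tnni1, the slow troponin I, had 0, 3, 11 and 4 counts in controls and 12, 0, 0, 7, 4, 40 and 6 in BMAd-DTA mice. BMAd-DTA 6 was thus the highest library for Myh7, Myl2, Myl3, Tnnc1, Tnni1 and Tnnt1. Myh7, Myl3 and Tnni1 rest on 294, 103 and 87 counts over the 11 libraries, too few for a firm comparison. The same limit holds for the tested genes Myl2 and Tnnc1, with 288 and 313 counts. Across the 4 tested slow genes the median log2 fold change was 0.78 (3 above 0, 1 below), across the 13 fast genes it was -0.93 (13 below 0), and across the 23 shared genes -0.68 (21 below 0). The difference between fast and slow genes was not tested. With a mean of at least 50 counts required, Myl2 and Tnnc1 dropped out. The slow median was then -0.72, the midpoint of Mybpc1, far below 0, and Tnnt1, at 0.27.

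**Figure D4:**
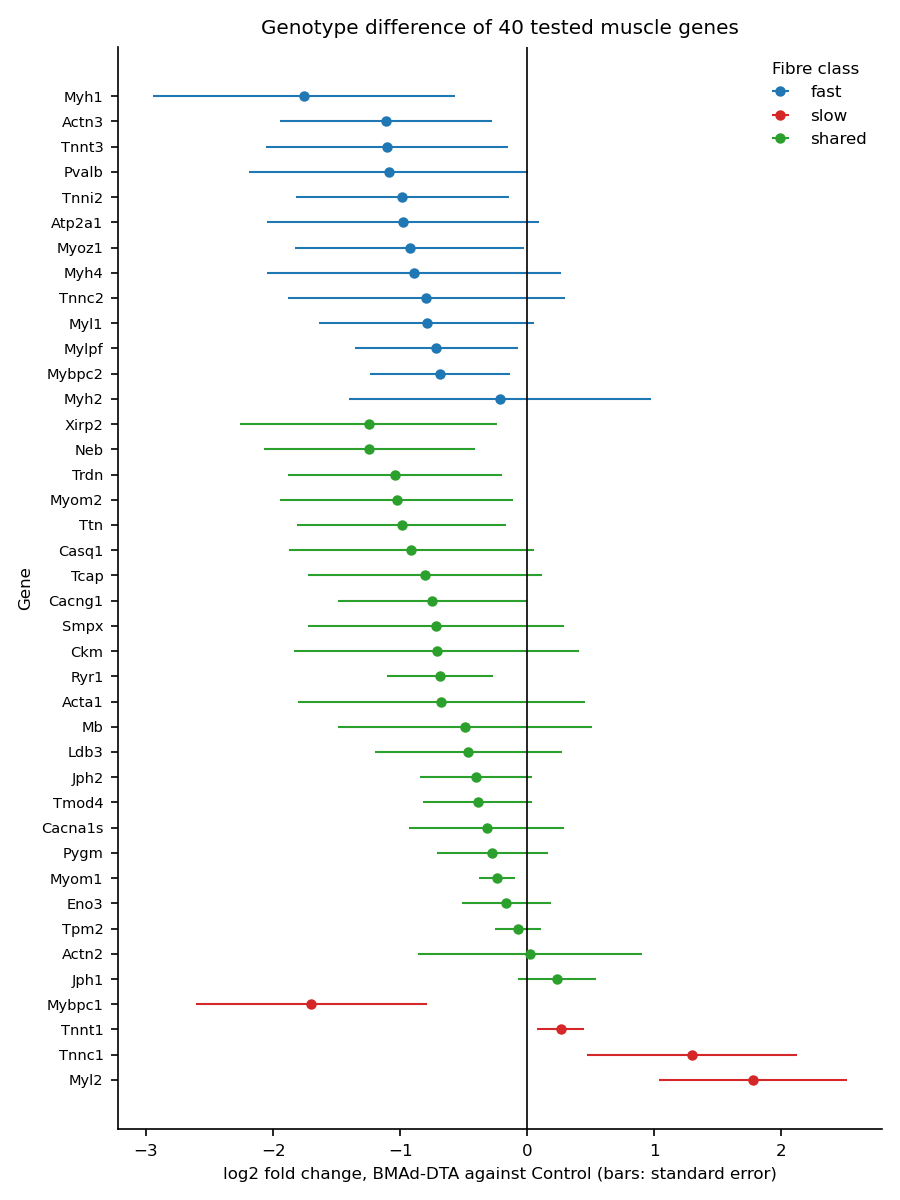
Log2 fold change of BMAd-DTA against control mice for the 40 tested genes (points) with the standard error (bars), colored by fibre class. All 13 fast genes lie below 0 and Myl2 and Tnnc1 lie farthest above it, and none has an edgeR adjusted p below 0.25.

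Of the 9 tested thin filament genes 7 had a log2 fold change below 0 (median -0.68). Acta1, skeletal actin and the gene with the highest mean level per length (45.7 CPM per kilobase), was at 89.2, 92.6, 185 and 1.66 CPM in controls and at 1.38, 28.7 and 203 CPM (lowest, median, highest) in BMAd-DTA mice. Its log2 fold change was -0.68 (SE 1.13, edgeR adjusted p = 0.819), and it was -0.0854 without Control 3 and -1.46 without BMAd-DTA 6. The fast troponins, which make the filament respond to calcium, had log2 fold changes of -1.10 (Tnnt3), -0.98 (Tnni2) and -0.80 (Tnnc2), which were -0.184, -0.225 and 0.101 without Control 3. Tnnt3 was at 48.9, 40.5, 139 and 2.02 CPM in controls and at 2.58, 15.5 and 86.7 CPM in BMAd-DTA mice. Tnni2 was at 12.3, 13.7, 34.2 and 1.24 CPM in controls and at 0.681, 5.96 and 24.1 CPM in BMAd-DTA mice. Tnnc2 was at 20.7, 13.7, 51.5 and 0.415 CPM in controls and at 0.0573, 8.14 and 46.8 CPM in BMAd-DTA mice. Neb, the giant ruler of the thin filament, had -1.24 (SE 0.828) and Tmod4, its pointed-end cap, -0.39 (SE 0.427).

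A few listed genes hardly varied. Tnnt1, the slow troponin T, was at 4.19, 3.59, 3.84 and 5.70 CPM in controls and at 4.20, 4.90 and 7.10 CPM (lowest, median, highest) in BMAd-DTA mice, a 1.98-fold range over all 11 mice in which Pvalb ranged 297-fold. Tpm2, a tropomyosin, and Myom1, a protein of the M-band, ranged 1.93-fold and 1.84-fold, and Myom1 was highest in Control 4, the lowest library for 16 of the other genes. Jph1 (3.42-fold), Eno3 (3.65-fold), Ryr1 (5.30-fold) and Pygm (5.40-fold) lay between. Of the 26 genes with more than 3 counts in their lowest library, 17 ranged over more than 10-fold and these 3 over less than 2-fold. As a result the ratio of Tnnt3 to Tnnt1 per length was 50.4 in Control 3 and 0.494 in Control 4, and the 39 to 59 Tnnt3 counts of the 4 muscle-poor mice stood beside 74 to 110 Tnnt1 counts. Which cells the Tnnt1, Tpm2 and Myom1 counts came from was not tested.

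Of the 10 Z-disc, M-band and titin genes 9 had a log2 fold change below 0 (median -0.87). Ttn, the elastic protein that links Z-disc and M-band, was at 44.4, 63.1, 103 and 3.47 CPM in controls and at 2.98, 16.3 and 61.3 CPM in BMAd-DTA mice, with a log2 fold change of -0.99 (SE 0.823, edgeR adjusted p = 0.605) that was -0.457 without Control 3. Xirp2 and Actn3, the fast fibre alpha-actinin, had -1.25 (SE 1.01) and -1.11 (SE 0.833). Actn2, the other alpha-actinin of the Z-disc, had 0.02 (SE 0.882) and was highest in BMAd-DTA 7 (7.94 CPM) and Control 2 (7.60 CPM), as Myh2 was.

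Calcium genes covered release, storage, binding and uptake, and 8 of 9 had a log2 fold change below 0 (median -0.75). Atp2a1 (SERCA1), the fast fibre pump that returns calcium to the store, was at 120, 124, 349 and 3.37 CPM in controls and at 4.18, 44.1 and 242 CPM (lowest, median, highest) in BMAd-DTA mice. Its log2 fold change was -0.98 (SE 1.07, edgeR adjusted p = 0.707), and it was -0.125 without Control 3 and -1.63 without BMAd-DTA 6. Pvalb, the soluble calcium buffer of fast fibres, was at 23.4, 20.8, 68.2 and 0.363 CPM in controls and at 0.229, 9.07 and 48.0 CPM in BMAd-DTA mice. Casq1, the calcium-binding protein of the store, was at 8.43, 10.3, 23.7 and 0.415 CPM in controls and at 0.115, 3.88 and 19 CPM in BMAd-DTA mice. Both were lowest in the same 4 mice as Ckm, with log2 fold changes of -1.09 (SE 1.10) and -0.91 (SE 0.964), which were -0.168 and -0.166 without Control 3.

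The channel genes varied less. Ryr1, the release channel, was at 18.5, 27.1, 38.3 and 8.97 CPM in controls and at 7.23, 10.5 and 25.5 CPM in BMAd-DTA mice, and its log2 fold change was -0.69 (SE 0.417, edgeR adjusted p = 0.443), or -0.337 without Control 3. Cacna1s, the voltage sensor, was at 4.46, 8.07, 11.4 and 0.674 CPM in controls and at 1.43, 3.66 and 9.51 CPM in BMAd-DTA mice, with -0.32 (SE 0.61). Its direction turned under limma-voom (0.02). Trdn, which anchors the release complex, had -1.04 (SE 0.84), and the junctophilins Jph1 and Jph2, which hold the membranes together, had 0.24 (SE 0.306) and -0.40 (SE 0.438). The pump Atp2a2 (SERCA2), not on the list and used by many tissues, stayed at 190 to 229 CPM in all mice, so that Atp2a1 per length was 3.03 times Atp2a2 in Control 3 and 0.0257 times in Control 4.

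All 4 energy and oxygen genes had a log2 fold change below 0 (median -0.38). Ckm had -0.71 (SE 1.12, edgeR adjusted p = 0.809), and without Control 3 it was 0.15. Mb, the oxygen-storing myoglobin, was at 5.07, 8.42, 3.90 and 0.156 CPM in controls and at 0, 2.08 and 8.85 CPM in BMAd-DTA mice, with -0.49 (SE 1.0, edgeR adjusted p = 0.857). Its highest levels were in BMAd-DTA 7 and Control 2, as for Myh2 and Actn2. Pygm, the muscle glycogen phosphorylase, and Eno3, the muscle enolase, had -0.28 (SE 0.436) and -0.17 (SE 0.35).

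Because the libraries fell into 2 clusters, correlations were taken within the 7 above the Ckm gap, over 10 pairs with p-values from all 5040 orders. Ckm and Tnni2 varied together (Pearson r = 0.98, exact permutation p = 0.00198, adjusted 0.0198, Spearman rho = 0.929, exact permutation p = 0.00675, adjusted 0.0675), and r was 0.98 without the 2 libraries farthest from the median. Both are on the muscle list and the 7 libraries were picked by Ckm, so this pair only describes genes already seen to vary together. None of the other 9 pairs passed, with adjusted p of Pearson r by the exact permutation test from 0.80 to 0.865. Among them were Ckm with the adipocyte gene Cfd (r = 0.179), the osteoblast gene Bglap (0.156) and the tendon gene Tnmd (-0.0794), and Myh4 with Myh2 (-0.499). Without the 2 farthest libraries these were -0.252, -0.21, 0.406 and -0.798, so the first 3 changed sign. As a description over the same 7 libraries, 21 of the 40 genes had r above 0.9 with the mean of the other muscle genes, 14 had r from 0.5 to 0.9 and 5 were under 0.5. These 5 were Myh2 (-0.453), Tnnt1 (-0.174), Myom1 (0.113), Myl2 (0.276) and Actn2 (0.391).

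The genes outside the list whose log2 CPM was most like the mean of the 40, by Pearson r over the 11 libraries among 12938 genes, included Des (desmin), Myot, Ampd1, Eef1a2, Txlnb, Pgam2, Cmya5, Nrap and Ly6g. This r served only to rank genes, since it spans both clusters. Des was at 17.6, 23.9, 35.5 and 5.39 CPM in controls and at 18.1, 5.44, 5.05, 13.5, 6.83, 33.5 and 24.5 CPM in BMAd-DTA 1 to 7. Ly6g, a neutrophil gene, ranged only from 40.6 to 61.0 CPM.

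Other muscle genes were read in the same fit, and no difference between lists was tested. Of 22 other sarcomere genes 17 were tested, with a median log2 fold change of -0.44 (12 below 0), from -1.44 (Csrp3) to 0.27 (Tpm1). The 14 tested other calcium genes had a median of -0.01 (7 below 0), and Casq2, the cardiac and slow calsequestrin, was the highest at 1.22 (SE 0.326, edgeR adjusted p = 0.0992), above every control in all 7 BMAd-DTA mice. Casq2 rests on few counts, 4 in its lowest library and 28 in its highest. The genotypes also separated for 2.81% of all genes, and Casq2 was not alone in this among these lists. Other muscle energy genes had -0.10 (9 of 15 below 0), from -1.13 (Ampd1) to 0.57 (Fabp3). Membrane and junction genes had 0.36 (2 of 9 below 0), from -0.46 (Sgcd) to 1.13 (Sgca). Growth and atrophy genes had 0.13 (2 of 6 below 0), from -0.77 (Ppargc1a) to 0.45 (Fbxo32). Only 2 of 10 myogenic and embryonic genes and 3 of 8 cardiac genes were tested, and some genes of both lists were not analysed here. Casq2 had the lowest edgeR adjusted p of these 7 lists.

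Markers of other tissues were summed per library beside the muscle genes, which summed to 229 to 2150 CPM in controls and 204 to 1700 CPM in BMAd-DTA mice. Of the 229 CPM in Control 4, 94.5 were Myom1 and 51.1 Tpm2, so these sums span less than most single muscle genes. Smooth muscle genes summed to 362 to 469 and 359 to 478 CPM, nerve genes to 179 to 199 and 176 to 217 CPM, tendon genes to 336 to 535 and 360 to 620 CPM, erythroid genes to 13200 to 29800 and 17500 to 31100 CPM and neutrophil genes to 24100 to 27800 and 19800 to 28800 CPM. In none of these 5 sums were the 4 muscle-poor libraries the lowest 4. The sums are weighted to their most abundant genes, as Mylk held 138 of the 367 CPM of smooth muscle genes in Control 1. The less abundant Lmod1 was highest in Control 3 (9.34 CPM) and lowest in Control 4 (2.75 CPM), as many muscle genes were. Most genes of the smooth muscle list had these same highest and lowest libraries. In BMAd-DTA 6, rich in muscle RNA, Lmod1 was at 4.17 CPM, and in the muscle-poor BMAd-DTA 2, 3 and 5 at 4.24, 5.96 and 4.25 CPM. Adipocyte genes summed to 955 to 1650 CPM in controls and 361 to 1190 CPM in BMAd-DTA mice. Control 4 was the lowest control in the muscle, adipocyte, smooth muscle, erythroid and neutrophil sums, but not in the nerve, tendon or osteoblast and osteocyte sums. Osteoblast and osteocyte genes summed to 1970 to 7870 and 9970 to 21200 CPM and were thus present in every bone. The part of these tissues in the muscle values was not tested.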

How the data were processed

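RNA from 11 distal tibiae was sequenced as stranded paired reads. Per the labels, FastQC 0.11.9, STAR and the mm10 build were used, and the authors deposited raw counts per gene, as a merged table and as per-library files whose read-strand counts are the same as in the merged table for the genes that both hold. They tested genotype with DESeq2. Here the merged counts (22600 genes, 99.89% matched to GENCODE M21 for exon lengths) were filtered with filterByExpr, scaled by TMM and tested with the edgeR 4.0.16 quasi-likelihood fit (R 4.3.3), genotype alone as the effect, two-sided, at an adjusted p of 0.05 over 16496 genes. Alternatives were DESeq2 1.42.0, limma-voom (limma 3.58.1), 3 scalings, library sizes without the muscle genes, other filters and count tables, and each mouse left out. The exact permutation test used all 330 splits of the mice into 4 and 7 (smallest p 0.00303). Correlations used log2(CPM + 0.5) and were taken within the upper cluster of libraries, a choice made after the values were seen, in place of the pooled fit. The edgeR step was tested on simulated counts. Libraries of a genotype differed by more than counting noise (chi-square per gene 17.85 to 59.88 over 27 pairs), so none was a copy. All genes of the list may be named, values per mouse are given for a fixed subset, and of other lists only the extremes may be named. A few genes that these rules would name are not reported here. The muscle genes and lists were chosen with earlier results of these data known.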

Additional observations from a re-analysis of the deposited data

Results flagged for a closer look

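In 46 groups of mice checked for a single library far from the others, 9 stood apart. The check took the gap to the next mouse as a share of the range, in CPM without logs. Its nominal rate of about 1 in 20 groups assumes values of normal shape. These CPM run over wide ranges within a genotype, so the 9 cannot be set against that rate. The checks are also not independent because these genes share libraries. BMAd-DTA 6 was the highest in 6 of the 9. It had 120 CPM of Ckm against 49.3 in the next BMAd-DTA mouse, 46.8 of Tnnc2 against 20.1, 6.52 of Myl2 against 2.53, 6.75 of Tnnc1 against 2.41, 3.40 of Myl3 against 0.959 and 2.35 of Tnni1 against 0.707. BMAd-DTA 7 had 44.3 CPM of Myh1 against 6.30 in the next. Control 3 had 2.30 CPM of Tnnc1 against 0.496 and 0.532 CPM of Myh7 against 0.0589 in the next control mouse.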

How the results depend on the processing

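No paired analysis was possible because the replicate numbers only name the mice. No muscle gene passed the threshold under the 9 alternative settings or with any 1 of the 11 mice left out, and the lowest adjusted p were 0.0862 (Myl2, DESeq2) and 0.128 (Myh1, edgeR without BMAd-DTA 7). Over all genes, DESeq2 called 433 higher and 412 lower, and genes called lower were 6 by limma-voom, 5 with DESeq2 size factors and 2 with library totals, against 12 higher and 1 lower in the edgeR test; the cause was not tested. Cacna1s turned to 0.024 under limma-voom. The slow median was -0.715 with a mean of at least 50 counts, since only Mybpc1 and Tnnt1 of the slow genes were then tested. With 1 mouse left out, genes called ranged from 0 to 176 higher and from 0 to 116 lower, and both peaks came without Control 3. The median log2 fold change ranged from -1.33 to -0.0854 for all 40 genes, -1.63 to -0.149 for fast, 0.40 to 2.04 for slow and -0.959 to -0.00816 for shared genes. Directions turned for Ckm (-1.67 to 0.153), Mb (-1.02 to 0.0394), Myh2 (-0.908 to 0.776), Tnnc2 (-1.68 to 0.101) and Cacna1s (-0.699 to 0.164). Mean shares of Myh1 ranged from 12.1% to 19% in controls and 4.96% to 8.78% in BMAd-DTA mice, of Myh4 from 76.4% to 85.5% and 82.9% to 87.6%, of Myh2 from 2.36% to 4.67% and 5.01% to 7.39%, and of Myh7 from 0.0183% to 0.0557% and 0.661% to 1.29%. The share of counts on muscle genes ranged from 0.0724% to 0.136% in controls and 0.0488% to 0.0727% in BMAd-DTA mice.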
